A study of Mus musculus with 367 samples.

Results

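The matrix metalloproteinases (MMPs) and their tissue inhibitors (TIMPs) were followed through single cells of large healing skin wounds of the mouse. The genes were chosen by name, the MMP genes Mmp2, Mmp3, Mmp11, Mmp13, Mmp14, Mmp19 and Mmp23 and the TIMP genes Timp1, Timp2 and Timp3, and all 10 were found among the 50600 genes of the expression tables by Ensembl identifier. The 7 tables, 1 per capture of cells, hold 54, 65 and 40 cells at day 12, 84 and 33 at day 15 and 49 and 42 at day 21, and 292 cells passed the filters. The questions asked of the data were in which kind of wound cell each gene was read, at what level, and whether that level differed between the days after wounding.

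MMPs are zinc-dependent proteases that cut collagens and other proteins of the extracellular matrix, and most are made as inactive precursors. Mmp2 is a gelatinase, Mmp3 a stromelysin that can also activate other MMPs, and Mmp13 a collagenase of fibrillar collagen. Mmp14 is anchored in the cell membrane and activates Mmp2 at the cell surface, with Timp2 as the link between them. Mmp11 and Mmp23, like Mmp14, carry a site for furin-type convertases and can be activated inside the cell. TIMPs bind the active site of MMPs. Timp1 is a soluble inhibitor with little effect on membrane-bound MMPs, and Timp3 is held in the matrix and also inhibits members of the ADAM family of sheddases. In healing skin these genes are known for the clearing of provisional matrix and the remodelling of the scar.

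The cells came from excisional wounds on the back of Sm22-Cre;tdTomato mice of mixed background, wounded, by the labels, at 3 to 8 weeks of age (the study's methods give a narrower range within it) and sampled at post-wounding day (PWD) 12, 15 or 21. All 3 groups carried the same transgenes and the same wound, and no unwounded group was analysed here. Pooled wound tissue of 2 to 3 animals per time point was collected. Viable tdTomato-high cells were sorted and loaded on C1 microfluidic chips. This gave 3 captures at day 12, 2 at day 15 and 2 at day 21. Sm22-Cre expresses Cre recombinase from the promoter of Tagln, a gene of contractile cells, so tdTomato also marks cells in which that promoter was active only in the past. The sort therefore gives no account of tdTomato-negative wound cells. The capture was taken as the replicate. It is not stated whether captures of one day came from different mice, so that p-values measure the spread between captures, which may be technical.

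Expression is in FPKM, in which fragments are divided by the length of the transcript and by the depth of the cell, so that levels may be set side by side between genes. The cell kinds were cut by fixed limits on 3 genes. Matrix fibroblast-like cells had Col1a1 of at least 1000 FPKM, Rgs5 under 100 and Tyrobp under 50, mural-like cells had Rgs5 of at least 500 and Tyrobp under 50, and myeloid-like cells had Tyrobp of at least 500. Of the kept cells 198 were matrix fibroblast-like, 57 mural-like, 26 myeloid-like and 11 of no kind. These kinds are ranges of 3 genes, and a gene that varies with one of them is not independent of the kinds. The matrix limit set a minimum on Col1a1, the other kinds had no maximum, and 19 mural-like and 4 myeloid-like cells reached the Col1a1 limit as well. Near the limits lay 3 matrix fibroblast-like cells with Col1a1 under 2 times its limit and 3 mural-like cells with Rgs5 under 2 times its limit.

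The kinds were checked against marker lists that leave out the 3 limiting genes. All 9 matrix fibroblast markers were detected in at least 50% of the matrix fibroblast-like cells, 7 of 8 mural markers in at least 50% of the mural-like cells and 8 of 8 myeloid markers in at least 50% of the myeloid-like cells. The summed matrix marker level was 18303 to 33906 FPKM over matrix captures, but still 4109 to 13488 over mural captures and 69.6 to 11182 over myeloid captures. The mural list summed to 10.7 to 38.3 FPKM in matrix fibroblast-like cells and the myeloid list to 6.50 to 59.7. In mural-like cells the myeloid list summed to 0.392 to 53.5 FPKM, and Fcer1g, C1qa and Ptprc were detected in none of them. The median of the estimated fragments of kept cells was 956372 to 2328890 over the 7 captures. In matrix fibroblast-like cells this median was 2.004e+06, 1.204e+06 and 1.265e+06 in the day 12 captures. It was 9.708e+05 and 9.809e+05 at day 15 and 2.205e+06 and 2.306e+06 at day 21, so that depth differed between days.

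Some columns appear to hold reads of another cell besides their own. In 14 columns at least 87.5% of the rare genes of another cell were also detected, against at most 45.3% in any other pair of cells. Of the 22 such pairs 5 join a column of day 12 capture 3 to a cell of day 15 capture 2, captures of different days. These captures may therefore not be independent in the tests between days. The study left out wells in which cells were not captured singly, and the source of the shared genes was not tested. All such columns are named below as columns that hold another cell. Among kept cells the columns concerned were 5 matrix fibroblast-like, 4 mural-like and 2 myeloid-like, and results that rest on them are given with and without them. Mmp3 and Mmp13 in mural-like cells are the members most affected.

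In mm10 (GRCm38) Mmp3 (chr9:7445822-7455975) and Mmp13 (chr9:7272514-7283331) lie near each other on the plus strand of chromosome 9. Timp3 (chr10:86300372-86349506, plus strand) lies inside the Syn3 gene of the other strand. Mmp2 lies at chr8:92827291-92853420, Mmp14 at chr14:54431612-54445364, Mmp19 at chr10:128790910-128800824 and Timp1 at chrX:20870166-20874735, all on the plus strand. Mmp11 (chr10:75923222-75936496), Mmp23 (chr4:155650655-155653384) and Timp2 (chr11:118301069-118355740) are on the minus strand. The exons of Timp3 share 21.3% of their bases with exons of Syn3, those of Mmp19 share 28.3% with Tmem198b and Gm47093, and those of Mmp11 share 5.58% with Chchd10, each time on the other strand. The library kit keeps no strand, so reads of those bases cannot be told apart. The level of Syn3 was 0.81 FPKM in the mean matrix fibroblast-like cell and 6.01 in the mean mural-like cell, that of Tmem198b 8.08 and 5.01.

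Promoter windows from RefSeq (GRCm38.p6), 250 bases before to 50 after the start of a transcript, matched 8 of the 10 genes in 9 windows. They were searched on both strands for TGAGTCA, the binding motif of the AP-1 factors (Fos and Jun proteins), and for TATAAA, the TATA box. Of all 32851 windows 5.20% hold the first, 13.6% the second and 0.941% both. Among the members only the windows of Mmp3 and Mmp13 hold either, and both hold both. The 100 bases before the RefSeq start of these genes are shown, since they are also the members with the most uneven levels between cells, and those of Timp3 are shown beside them as the member whose level was highest in mural-like cells relative to matrix fibroblast-like cells. For Mmp3 and Mmp13 this start is that of the gene given above. For Timp3 it lies at position 86300412, inside the GENCODE gene, whose first bases are therefore part of the sequence shown. Capitals mark the motifs, with TGACTCA as the reverse complement of TGAGTCA.
Mmp3, chr9:7445722-7445821, plus strand: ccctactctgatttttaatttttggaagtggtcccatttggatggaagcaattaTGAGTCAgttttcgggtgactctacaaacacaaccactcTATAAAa
Mmp13, chr9:7272414-7272513, plus strand: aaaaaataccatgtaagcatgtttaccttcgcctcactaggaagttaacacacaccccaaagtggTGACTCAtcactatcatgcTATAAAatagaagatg
Timp3, chr10:86300312-86300411, plus strand: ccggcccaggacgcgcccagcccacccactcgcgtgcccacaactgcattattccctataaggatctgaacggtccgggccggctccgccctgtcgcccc
The whole Timp3 window holds 24 CG dinucleotides, against 1 each for Mmp3 and Mmp13 and a median of 7 over all windows. A match is a description of letters and not evidence of binding.

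Every matrix fibroblast-like cell had at least 3 of the 10 genes, with a median of 7. The median was 5 in mural-like and 3.5 in myeloid-like cells. Mmp14 and Timp2 were detected, at a value above 0 FPKM, in 198 of 198 matrix fibroblast-like cells, and Mmp2 in 99.0% of them (exact Clopper-Pearson 95% interval 96.4 to 99.9%). Mmp23 followed with 86.9%, Timp1 with 75.8%, Mmp11 with 73.2%, Timp3 with 70.7%, Mmp19 with 53.03%, Mmp3 with 45.5% (38.4 to 52.7%) and Mmp13 with 12.6% (8.34 to 18.1%). Intervals cover counting of cells only. Shares depend on the limit of detection. From 10 FPKM up Timp3 was found in 33.8% of matrix fibroblast-like and 70.2% of mural-like cells. At the median depth of matrix fibroblast-like cells 3 fragments are worth 0.473 FPKM for Timp3 and 3.58 FPKM for the short Timp1 transcript. A value of 0 thus allows for up to about that level in the sequenced library. RNA of the cell lost before sequencing was not measured, so that 0 does not show absence from the cell.

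**Figure D1:**
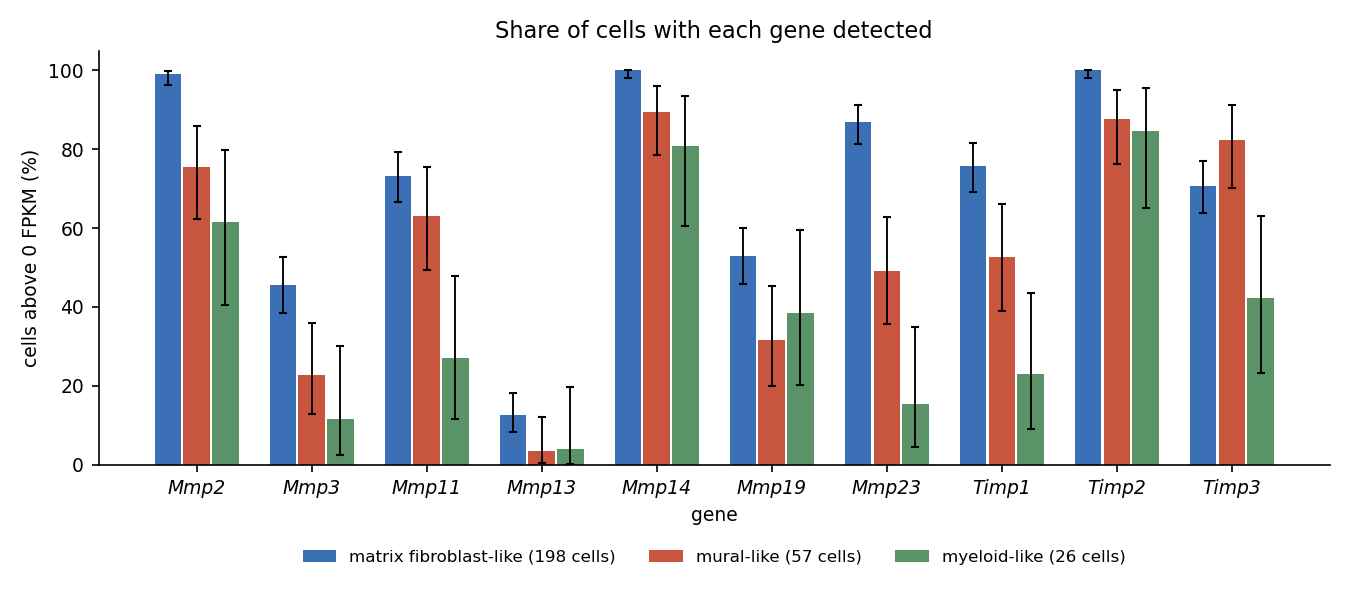
Share of cells (percent) with a value above 0 FPKM for each of the 10 genes in matrix fibroblast-like, mural-like and myeloid-like cells, with exact 95% intervals as bars. Mmp14 and Timp2 reach 100% in matrix fibroblast-like cells, and Mmp13 stays at 12.6%. With all captures pooled, Timp3 is the gene with a larger share in mural-like (82.5%) than in matrix fibroblast-like cells (70.7%). Its order was the opposite in day 15 capture 1 (72.2% against 84%), while the mural share was larger in the other captures with mural-like cells.

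The gelatinase Mmp2 was the most abundant of the 10 in matrix fibroblast-like cells. Its mean was 831, 657 and 688 FPKM in the 3 day 12 captures, 609 and 561 at day 15 and 554 and 918 at day 21. It stood above the next gene, Timp1, in 7 of 7 captures by 1.29 ± 0.55 on the log2 scale (SD, n = 7), and this gap is larger than its spread. Timp1, Mmp14, Timp2, Mmp11, Mmp3 and Mmp23 followed, with day-to-day and capture-to-capture ranges that overlapped so that no neighbours in this order differed beyond their spread. A second step of 2.14 ± 1.77 lay between Mmp23 and Timp3, in 6 of 7 captures. Timp3, Mmp19 and Mmp13 came last, again without a gap beyond the spread.

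Levels were spread unevenly over cells. In matrix fibroblast-like cells the 10% of cells with the most Mmp14 held 28.7% of its sum, close to 28.9% for Mmp2 and 29.6% for Timp2. The same share was 74.4% for Mmp3, 72.3% for Timp3 and 99.9% for Mmp13. Mmp13 was thus almost wholly a matter of single cells, the highest at 2519 FPKM in day 15 capture 2, the next at 323 FPKM in day 12 capture 2. A mean of Mmp3, Mmp13 or Timp3 in one capture therefore rests on few cells.

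**Figure D2:**
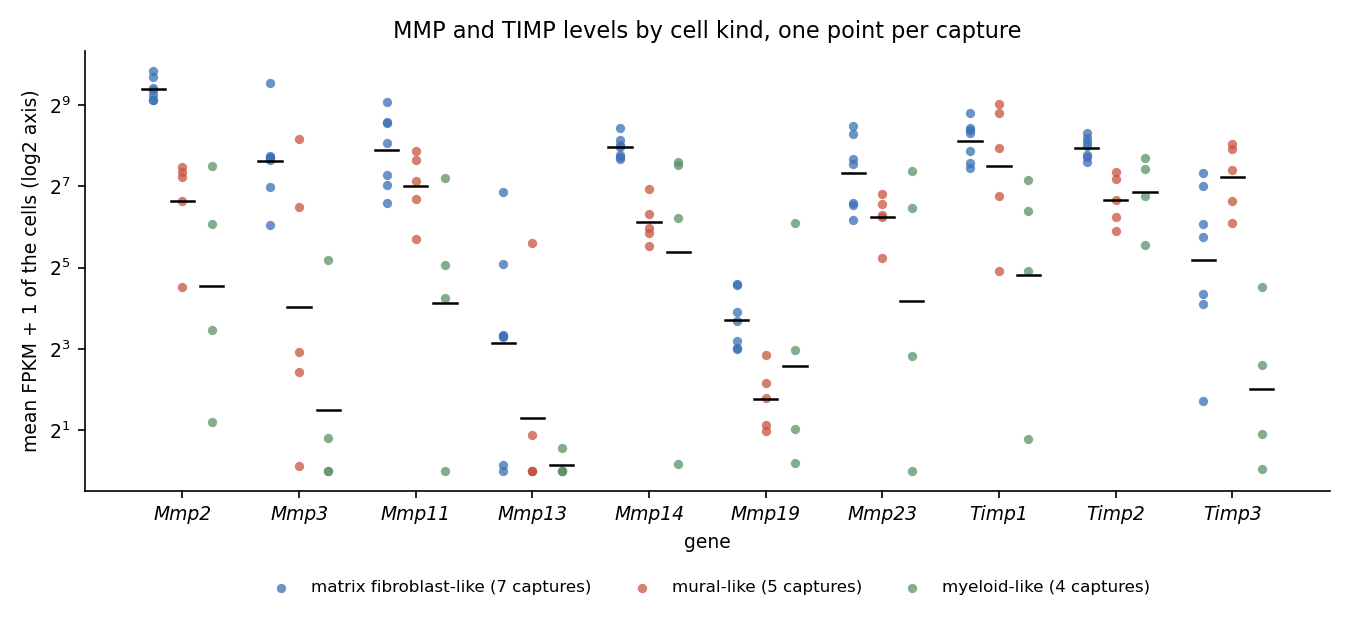
Mean FPKM + 1 on a log2 axis of each gene, with 1 point per capture for the 7 matrix fibroblast-like, 5 mural-like and 4 myeloid-like profiles and a black bar at the mean of the log2 values. Mmp2 stands highest in matrix fibroblast-like cells, and Timp3 is the gene whose mural-like bar stands above its matrix fibroblast-like bar.

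In mural-like cells, 5 captures had at least 3 cells, namely the 3 of day 12, day 15 capture 1 and day 21 capture 1. The 7 MMP genes together summed to 365 to 747 FPKM per mural profile and to 1189 to 2341 FPKM per matrix profile. The 3 TIMP genes summed to 271 to 809 and 462 to 679 FPKM, so that the TIMP ranges overlapped and the MMP ranges did not. The ratio of the MMP sum to the TIMP sum was 1.85 to 3.81 in matrix fibroblast-like cells (median 2.79, 7 captures) and 0.571 to 1.37 in mural-like cells (median 1.19, 5 captures). Without the columns that hold another cell the mural median was 0.687. In the 4 myeloid profiles the ratio ran from 0.0529 to 2.21.

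By limma on log2(mean FPKM + 1), with the capture as a block and Benjamini-Hochberg adjustment over 14019 genes, none of the 10 members passed the threshold of 0.05 between mural-like and matrix fibroblast-like cells. The test called 143 genes, 1.02% of those tested, 97 of them higher and 46 lower in mural-like cells, the latter 0.328% of those tested. At an unadjusted p under 0.05 it held 6 members and 1701 genes. Of the members 9 of 10 had a difference below 0, with a median of -1.61 on the log2 scale against -0.25 over all genes tested, of which 61.1% were below 0.

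Mmp2 was lower in mural-like cells in 5 of 5 captures. Its mural levels were 97.7, 21.8 and 178 FPKM in the day 12 captures, 148 in day 15 capture 1 and 163 in day 21 capture 1, all under the lowest matrix level of 554 FPKM. The difference was -2.84 ± 0.78 on the log2 scale (SE) with an adjusted p of 0.115. The membrane-bound Mmp14 had mural levels of 45.02 to 121 FPKM against 203 to 342 in matrix fibroblast-like cells, with a difference of -2.31 ± 0.84 and an adjusted p of 0.249, and was also lower in 5 of 5 captures. Timp2, which links these proteins at the cell surface, was lower in 5 of 5 captures with 58.4 to 163 FPKM against 192 to 319, a difference of -1.39 ± 0.47 and an adjusted p of 0.209. Mmp19, whose substrates include components of basement membranes, lay at 0.949 to 6.23 FPKM against 7.02 to 23.1. These 4 of the 10 genes had mural and matrix ranges that did not overlap, as had 3.04% of all genes tested, while none of them passed the adjusted threshold.

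Mmp3 was the member that turned on the doubtful columns. Its mural levels were 0.0778, 4.34 and 285 FPKM at day 12, 6.54 in day 15 capture 1 and 89.4 in day 21 capture 1, against 65.4 to 747 FPKM over the 7 matrix profiles. The highest mural value, in day 12 capture 3, was 0.17 FPKM without its 3 columns that hold another cell, the highest of which held 3219 FPKM. With all kept cells the difference was -3.59 ± 1.08 with an adjusted p of 0.153. Without those columns it was -5.03 ± 0.92 with an adjusted p of 0.015 by limma, and Mmp3 was lower in 5 of 5 captures. That fit called 188 of 13995 genes, 1.34%, and 1 of the 10 members. The call was lost when any of the 3 day 12 captures or day 15 capture 1 was left out.

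Mmp13 was detected in 2 of 57 mural-like cells, and in 1 of 53 without the doubtful columns. Its one high mural value, 671 FPKM in day 12 capture 3, was in such a column. Mmp11, a stromelysin-like MMP, was measured at 51.4 to 234 FPKM in mural-like cells, within the matrix range of 95.5 to 539 FPKM apart from its lowest value. Mmp23 was at 36.8 to 112 FPKM against 70.9 to 357, and Timp1 at 29.002 to 520 against 173 to 445. The lowest mural Mmp23 value, in day 12 capture 3, was 6.81 FPKM without the doubtful columns. In each mural profile 1 cell held 35.8 to 86.6% of the Mmp23 sum. The mural-like and matrix fibroblast-like ranges of these 3 genes overlapped, with adjusted p-values of 0.584, 0.747 and 0.64 by limma.

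Timp3, the matrix-bound inhibitor, was the member with a difference above 0. Its mural levels were 98.3, 67.8 and 240 FPKM in the day 12 captures, 168 in day 15 capture 1 and 262 in day 21 capture 1. In matrix fibroblast-like cells of the same captures it was at 52.5, 16.1, 2.29, 66.3 and 127 FPKM. It was higher in mural-like cells in 5 of 5 captures, by 0.89 to 6.20 on the log2 scale, and the fitted difference was 2.55 ± 0.91 with an adjusted p of 0.242, which did not pass. In day 12 capture 2 the mural level was 33.5 FPKM without the doubtful column. Values of at least 10 FPKM were found in 7 of 9, 3 of 7, 10 of 14, 11 of 18 and 8 of 8 mural-like cells of those captures, and in 5 of 31, 2 of 26, 1 of 17, 21 of 50 and 11 of 18 matrix fibroblast-like cells. As a share of the TIMP sum Timp3 made up 10.5 to 61.9% in mural-like and 0.345 to 25.9% in matrix fibroblast-like cells. The overlapping gene Syn3 was detected in 28.1% of mural-like and 15.2% of matrix fibroblast-like cells, and its part in the Timp3 values was not tested.

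**Figure D3:**
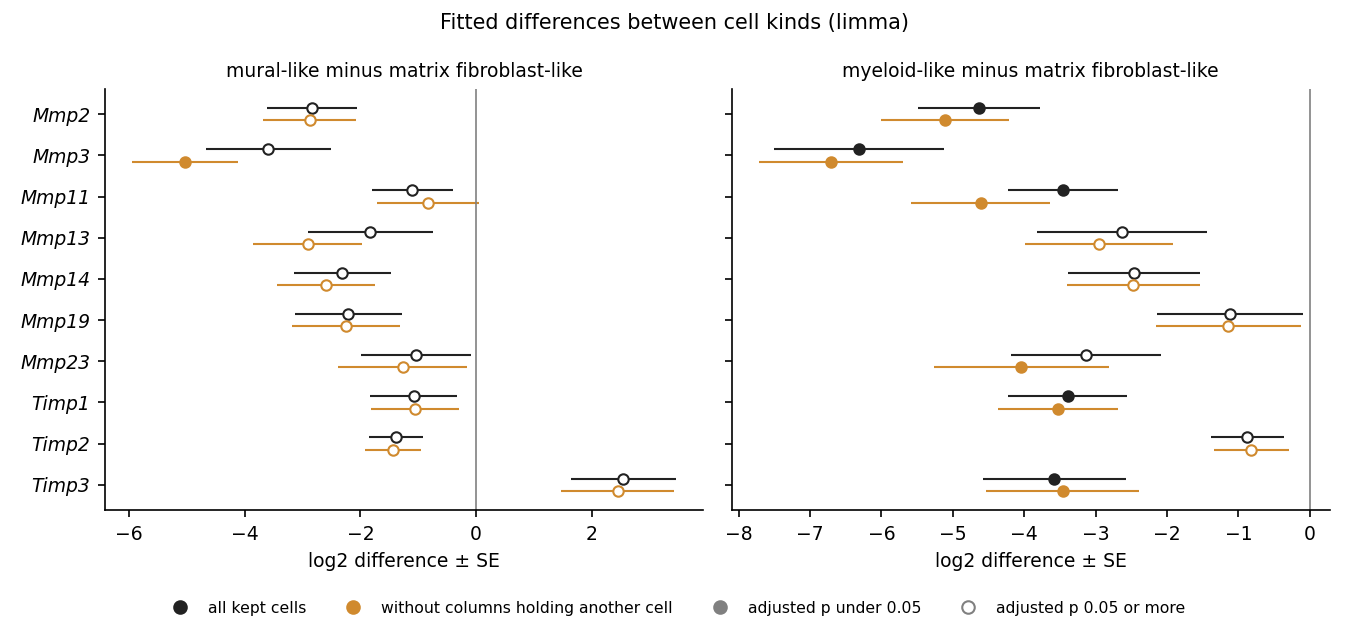
Difference of each gene from matrix fibroblast-like cells on the log2 scale with its SE, from limma, for mural-like and for myeloid-like cells. Black is all kept cells, orange without the columns that hold another cell, and filled points passed an adjusted p of 0.05. No mural point is filled for all kept cells, and 5 myeloid points are.

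**Figure D4:**
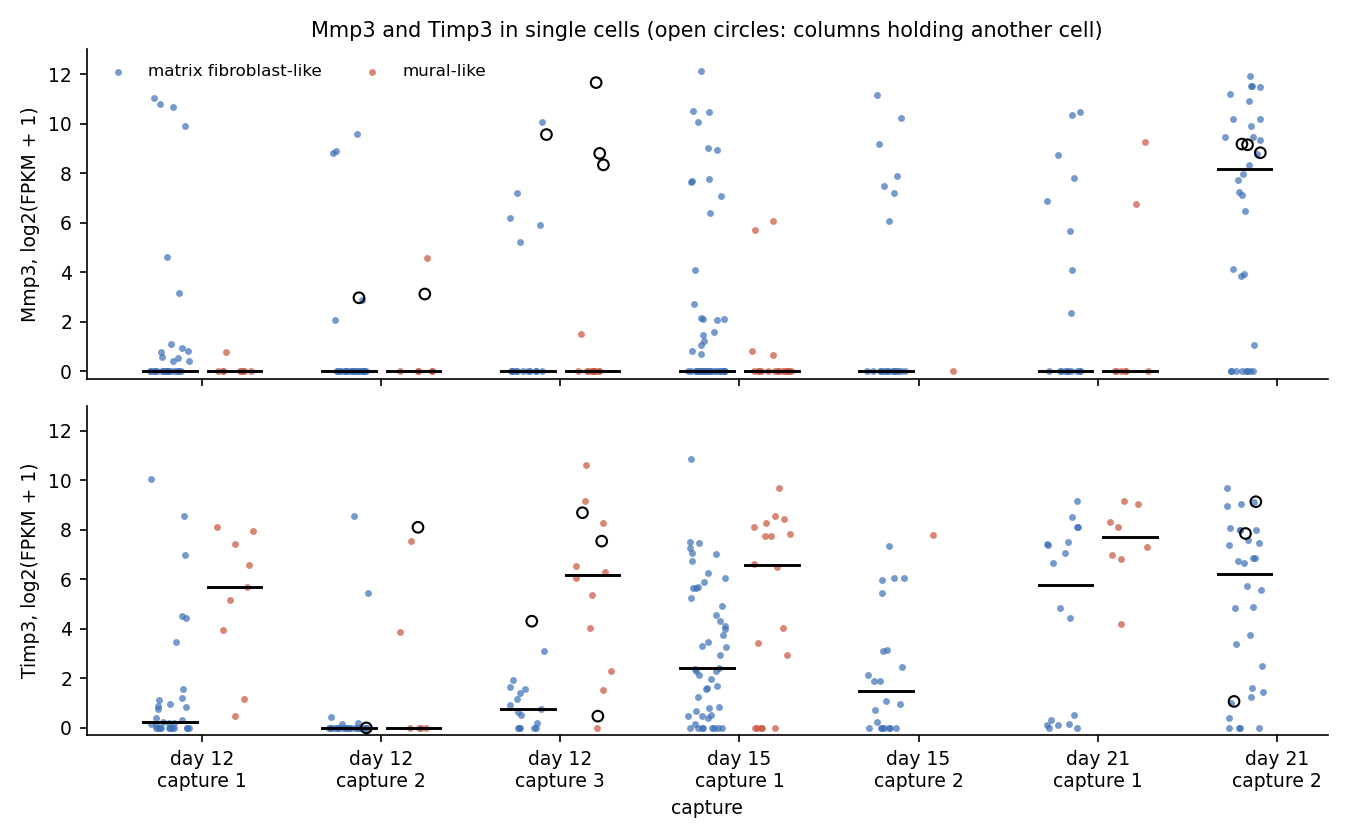
Single cells by capture, as log2(FPKM + 1), for Mmp3 and Timp3, with matrix fibroblast-like cells in blue and mural-like cells in red, columns that hold another cell ringed in black and a bar at the median. Mmp3 is at 0 in most cells and high in a minority, and the mural Timp3 median lies above the matrix one in 4 of the 5 captures with both kinds, both being 0 in day 12 capture 2.

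The mural-like cells were not uniform in these genes. In the 38 with Col1a1 under 1000 FPKM, mean Mmp3 was 0.883 FPKM, Mmp2 82.5, Mmp14 35.9 and Timp3 219, and Mmp13 was detected in 0 of 38. A limit of 3 cells puts the share of cells with a value above 0 at up to 7.89%. In the 19 at or above that limit, mean Mmp3 was 253 FPKM, or 52 without the doubtful columns, Mmp2 245, Mmp14 125 and Timp3 91.0. Mean Timp1 was 209 and 222 FPKM, but it was detected in 15 of 38 and 15 of 19 cells, with medians of 0 and 166 FPKM. With mural-like and myeloid-like cells restricted to Col1a1 under its limit, a choice made after the data were seen, limma called Mmp2 (-5.30, adjusted p = 0.00785) and Mmp3 (-6.68, adjusted p = 0.00124) lower in mural-like cells. That fit called 702 of 13830 genes, 5.08%, of which 114 were higher, and the median difference over all genes was -0.68. Timp3 was at +2.66 with an adjusted p of 0.092. Col1a1 also defines the matrix fibroblast-like cells, so this restriction is not independent of the comparison.

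Between myeloid-like and matrix fibroblast-like cells, Mmp2, Mmp3, Mmp11, Timp1 and Timp3 were lower in myeloid-like cells by the same fit, 5 of 10 members. The test called 2197 of 14019 genes, 15.7%, of which 427 were higher and 1770 lower, the latter 12.6% of those tested. All 10 members had a difference below 0, with a median of -3.26 on the log2 scale against -0.85 over all genes, of which 72.1% were below 0. Without the doubtful columns 2314 genes, 16.5%, and 6 members were called, Mmp23 being the added one.

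Mmp2 had myeloid levels of 9.97 FPKM in day 12 capture 2, 179 in day 15 capture 2, and 66.6 and 1.28 in the day 21 captures. All of these lay under the lowest matrix level of 554, and the difference was -4.63 ± 0.85 with an adjusted p of 0.00377. Mmp3 was at 0, 0, 35.2 and 0.74 FPKM in the same captures, all under the lowest matrix level of 65.4, with a difference of -6.31 ± 1.19 and an adjusted p of 0.00422. It was detected in 3 of 26 myeloid-like cells. Mmp11 was at 17.9, 147, 32.2 and 0 FPKM, which overlaps the matrix range, with a difference of -3.46 ± 0.77 and an adjusted p of 0.00945. The 17.9 FPKM came from 1 column that holds another cell, and the level was 0 without it. In day 15 capture 2 and day 21 capture 1, 1 cell held 100% and 98.3% of the Mmp11 sum. Without the doubtful columns the Mmp11 difference was -4.61 ± 0.98 with an adjusted p of 0.00689 by limma.

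Timp1 was at 82.8, 29.4, 142 and 0.72 FPKM in myeloid-like cells, under the lowest matrix level of 173, with a difference of -3.39 ± 0.83 and an adjusted p of 0.0158. The call was lost without day 12 capture 2 (adjusted p = 0.0503) or day 21 capture 2 (adjusted p = 0.0615). Timp3 was at 0.0245, 21.9, 0.87 and 5.11 FPKM, with a difference of -3.58 ± 1.00 and an adjusted p of 0.0283. In day 15 capture 2 it stood at 21.9 FPKM in myeloid-like and 19.5 in matrix fibroblast-like cells, so that 3 of 4 captures were lower. The call was lost without day 12 capture 2, day 21 capture 1 or day 21 capture 2 (adjusted p = 0.0956, 0.14 and 0.091). Mmp2, Mmp3, Mmp14 and Timp1 are the 4 members whose myeloid and matrix captures did not overlap, against 15.4% of all genes tested.

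The members that did not pass against myeloid-like cells include Mmp14 and Timp2, each detected in 198 of 198 matrix fibroblast-like cells. Mmp14 was at 192, 73.6, 182 and 0.123 FPKM and was detected in 80.8% of myeloid-like cells, with a difference of -2.46 ± 0.92 and an adjusted p of 0.0855. Timp2 was at 108, 208, 170 and 46.3 FPKM and was detected in 84.6% of the cells, with a difference of -0.87 ± 0.52 and an adjusted p of 0.265, less than its spread between captures. Mmp23 was at 6.11, 166, 87.1 and 0 FPKM, with a difference of -3.13 ± 1.05 and an adjusted p of 0.0591, or -4.04 ± 1.23 and 0.0377 without the doubtful columns. Mmp13 was detected in 1 of 26 myeloid-like cells. Mmp19 ranged from 0.143 to 67.5 FPKM with an adjusted p of 0.471.

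Matrix fibroblast markers moved with these values. In the 22 myeloid-like cells with Col1a1 under 1000 FPKM, Mmp2 had a mean of 2.34 FPKM, Mmp11 0.396, and Mmp23 was detected in 0 of 22, a limit of 13.6% by the same 3 cells. In the 4 at or above the limit, Mmp2 had a mean of 277 FPKM, Mmp11 236, and Mmp23 was detected in 4 of 4 with a mean of 292. Mmp14 and Timp2 did not show so wide a contrast, at 121 against 187 FPKM and 139 against 130 FPKM. The part of matrix fibroblast RNA in the 4 cells was not tested. In the fit restricted to low Col1a1, with myeloid profiles in 3 captures, the same 5 members and Mmp23 were called, Mmp2 at -7.63 and Mmp23 at -6.62 (adjusted p = 0.00198 and 0.0079). It called 1529 of 13830 genes, 11.1%, of which 311 were higher, with a median difference of -1.01 over all genes.

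Between days, only matrix fibroblast-like cells had a profile in all 7 captures. By limma none of the 10 members passed the adjusted threshold in any pair of days. Over 13550 genes the test called 0 genes (0%) between days 15 and 12, 1 gene (0.00738%) between days 21 and 12, and 0 genes (0%) between days 21 and 15. The gene called was Gm2564, which is no member, with a difference of 7.30 ± 0.83 and an adjusted p of 0.0467, and is named after its value was seen. At an unadjusted p under 0.05 these comparisons held 790, 969 and 745 genes and 0, 4 and 2 members. By whether the captures of 2 days overlapped, 4 members did not between days 15 and 12, where 21.8% of all genes did not, 4 between days 21 and 12 (22.3%) and 5 between days 21 and 15 (29.7%).

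Timp1 had means of 334, 445 and 342 FPKM at day 12, 314 and 234 at day 15 and 173 and 189 at day 21. No capture of a later day reached one of an earlier day. The day means were 374 ± 61.9 (SD, n = 3), 274 ± 56.4 (n = 2) and 181 ± 10.9 FPKM (n = 2), and the exact permutation test of the spread between days gave p = 0.0286 over 210 assignments, whose smallest possible p is 0.0095. Mmp14 had 216, 258 and 249.1 FPKM at day 12, 342 and 281 at day 15 and 203 and 211 at day 21, again without overlap between days, highest at day 15 and lowest at day 21 (exact permutation p = 0.019). These are 2 of 10 unadjusted tests. The share of all genes with an exact permutation p under 0.05, or without overlap over the 3 days, was not computed. With adjustment over all genes by limma the differences of Timp1 and Mmp14 had p of 0.56 and 0.91 between days 21 and 12. With any 1 of the 3 day 12 captures left out both had p = 0.0667, the smallest the remaining 6 captures allow. Some other settings ended these results. With the mean of log2(FPKM + 1) over cells the exact permutation p was 0.105 for Timp1 and 0.143 for Mmp14, with each cell scaled to a common total Timp1 had 0.0571, and Mmp14 had 0.143 with no filter on cells and 0.105 without the doubtful columns and the cells they hold. Without day 21 capture 1 both had an exact permutation p of 0.0833, and Mmp14 had 0.117 without day 15 capture 1 and 0.05 without day 21 capture 2.

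Timp3 had the largest positive difference between days 21 and 12 among the 10 members, and it did not pass. Its matrix fibroblast-like means were 52.5, 16.1 and 2.29 FPKM at day 12, 66.3 and 19.5 at day 15 and 127 and 158 at day 21, both day 21 captures lying above the other 5. The median cell stood at 0.17, 0 and 0.68 FPKM, then 4.29 and 1.90, then 64.4 and 76.2. The gene was detected in 50% of the cells at day 12, 79.2% at day 15 and 88.5% at day 21, with the captures of a day pooled. By capture the shares were 64.5, 19.2 and 70.6%, then 84 and 68.2%, then 88.9 and 88.2%, so that days 12 and 15 overlapped. Depth differed between these days as given above, and its part in the shares was not tested. The Timp3 difference between days 21 and 12 was 3.31 ± 1.00 on the log2 scale (unadjusted p = 0.0073, adjusted p = 0.51 by limma). The exact permutation p was 0.229. Averaging log2(FPKM + 1) over cells instead of FPKM, which gives less weight to the few highest cells, the difference was 3.73 with an adjusted p of 0.00106 and the exact permutation p was 0.0095, the smallest possible. The same averaging took Timp1 and Mmp14 out of their results, as given above. Timp3 made up 25.7 and 25.9% of the TIMP sum in the day 21 captures.

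Mmp13 was near 0 at day 21, with 0 and 0.10 FPKM, against 9.10, 32.8 and 8.80 FPKM at day 12 and 9.02 and 116 at day 15. In day 15 capture 2, 98.9% of the Mmp13 sum came from 1 cell, whose rare genes were also detected in a column of day 12 capture 3. By limma the Mmp13 difference between days 21 and 15 was -5.03 ± 1.18 (unadjusted p = 0.00143, adjusted p = 0.653). Between days 21 and 12 it was -3.83 ± 1.07 (adjusted p = 0.477). Mmp13 values by day thus rest on few cells. Mmp13 was detected in 21.6, 6.94 and 7.69% of the pooled cells at the 3 days, so that detection and mean did not follow the same order. Over captures these shares ran from 9.68 to 34.6%, 4 to 13.6% and 0 to 11.8%. Mmp3 was at 210, 65.4 and 126 FPKM at day 12, 205 and 213 at day 15 and 198 and 747 at day 21, and was detected in 35.1, 41.7 and 65.4% of pooled cells. By capture the Mmp3 shares ran from 23.1 to 45.2%, 31.8 to 46% and 44.4 to 76.5%. The high Mmp3 value came from day 21 capture 2, where 21 of 34 cells had at least 100 FPKM, against 5 of 18 in capture 1. Mmp11 was lowest at day 21, with 154 and 95.5 FPKM against 379 to 381 at day 15, while the day 12 captures spread from 131 to 539. Mmp2, Mmp19, Mmp23 and Timp2 had exact permutation p-values from 0.505 to 0.771. The shares of cells given here by day also come from captures of different depth.

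**Figure D5:**
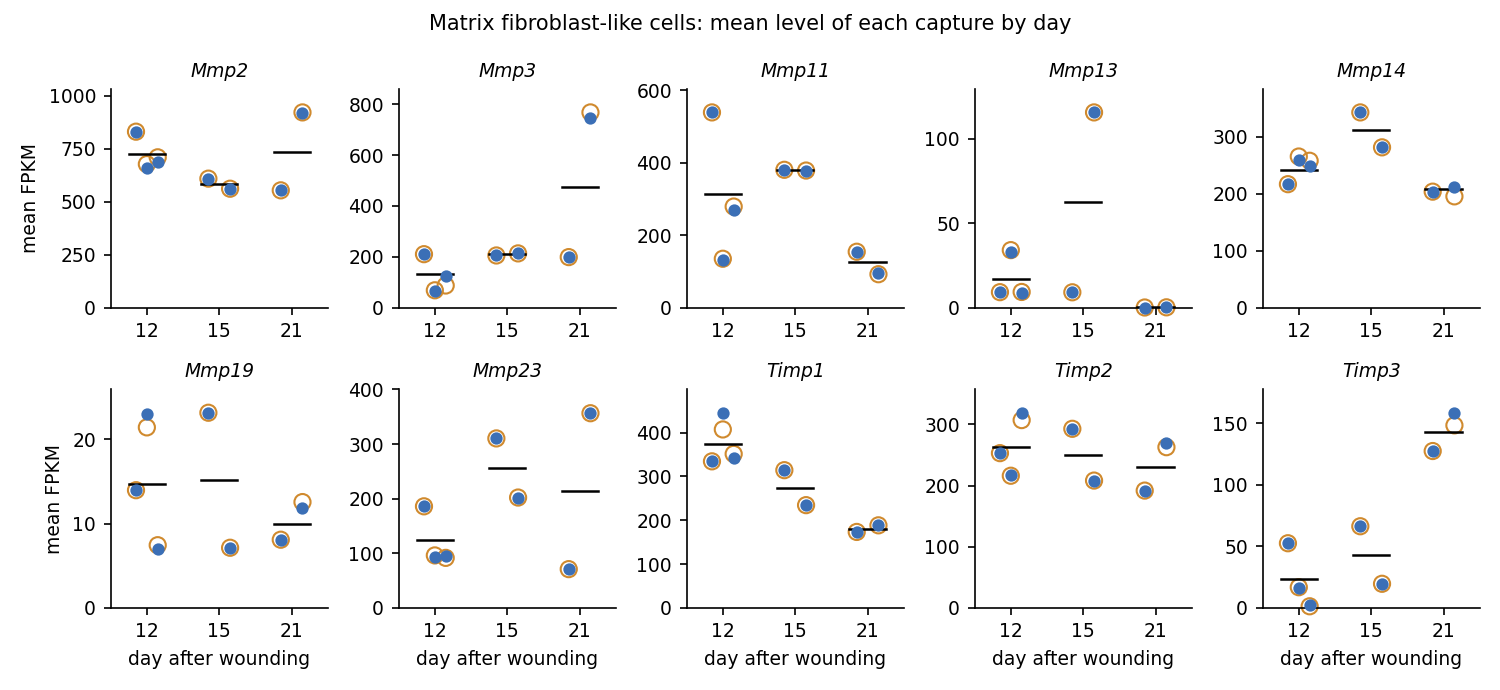
Mean FPKM of matrix fibroblast-like cells by day, 1 panel per gene, with blue points for captures, open orange points without the columns that hold another cell and a bar at the day mean. The Timp1 captures of the 3 days do not overlap, both day 21 captures of Timp3 lie above the rest, and Mmp13 is near 0 at day 21.

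Whether the mural to matrix difference itself changed with the day could be asked in 5 captures. The exact permutation test allows no p under 0.1 there, and gave 0.1 for Mmp14 and 0.2 to 1 for the other 9.

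Within captures, and without the columns that hold another cell, members were weakly related from cell to cell in matrix fibroblast-like cells. Over 7 captures, Spearman's rho of Mmp2 with Mmp14 had a median of 0.28 and was above 0 in 7 of 7, as was that of Mmp11 with Mmp14 (median 0.211). Mmp3 with Mmp13 had a median of 0.291 and was above 0 in 5 of 5 captures with each gene detected in at least 3 cells. Mmp13 with Mmp14 had a similar median of 0.29, from 0.104 to 0.643, and was also above 0 in 5 of 5. Timp1 with Timp2 had a median of -0.182, from -0.444 to 0.458, and was above 0 in 2 of 7. The cells of a capture share a chip and a library run, so these values describe the cells without a test. Among all kept cells, Mmp3 and Mmp13 were detected together in 16 of 198 matrix fibroblast-like cells, Mmp3 alone in 74, Mmp13 alone in 9 and neither in 99.

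Over the 16 profiles of kind and capture, the genes most like Mmp2 among 6771 with a mean of at least 10 FPKM were Svil (Pearson's r = 0.985), Col1a2 (0.964) and Col3a1 (0.953), the latter both fibrillar collagen genes. Most like Mmp14 were Cops6 (0.934), Mia3 (0.917) and Ctsk (0.914), most like Mmp11 Efemp2 (0.956), Maged1 (0.948) and Mfap2 (0.945), and most like Mmp23 Gstm2 (0.96), Gpx7 (0.955) and Mfap2 (0.94). For Mmp3 they were Slit2 (0.916), Ly6c1 (0.897) and Cpz (0.891), and for Mmp13, with lower values, Phgdh (0.788), Dhx58 (0.75) and Gm25379 (0.748). For Mmp19 they were Pmepa1 (0.86), 3300005D01Rik (0.815) and Sec31a (0.814). For the inhibitors they were Wls (0.918), Svbp (0.915) and Lrrc58 (0.915) with Timp1, Cpxm1 (0.932), BC005624 (0.903) and Ly6a (0.901) with Timp2, and Gnb4 (0.847), Plac9b (0.841) and Bok (0.838) with Timp3. Without the doubtful columns r was 0.453 for Gm25379 with Mmp13, and 0.826 and 0.775 for Cpxm1 and Ly6a with Timp2. All named genes but Gm25379 stayed at 0.748 or above. The profiles share captures and kinds, and these values are descriptions.

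Of 17 further genes of the family, 16 MMPs and Timp4, 6 were high enough to be tested. Mmp27 and Mmp16 were lower in myeloid-like than in matrix fibroblast-like cells (-4.46 and -3.07, adjusted p = 0.00909 and 0.0478), and 0 passed between mural-like and matrix fibroblast-like cells. Without the doubtful columns Mmp16 passed there as well (-3.32 ± 0.76, adjusted p = 0.0474). In myeloid-like cells the call of Mmp27 was lost without day 21 capture 1 (adjusted p = 0.0646) and that of Mmp16 held in 2 of 7 fits with a capture left out. In matrix fibroblast-like cells Mmp27 averaged 58.2 FPKM over captures, Mmp16, a membrane-bound MMP, 26.9, the gelatinase Mmp9 26.8 and the stromelysin Mmp10 12.9. Day 12 capture 2 was the highest for both Mmp9 and Mmp10, and without it the means were 13.2 FPKM for Mmp9 and 0.0757 for Mmp10. The macrophage elastase Mmp12 averaged 31.1 FPKM in myeloid-like and 2.71 in matrix fibroblast-like cells, and 54.4% of its myeloid sum came from 1 cell (adjusted p = 0.39). Mmp1a, Mmp1b and Mmp7 were listed at 0 in all cells of the 3 kinds.

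Of 20 genes for the activation, inhibition and clearance of MMPs, 18 were tested between kinds. Serpine2, an inhibitor of serine proteases such as thrombin and urokinase, was the 1 that passed in mural-like cells, at 3332 FPKM over captures against 225 in matrix fibroblast-like cells, a difference of 3.93 ± 0.54 with an adjusted p of 0.00205, and 0.00172 to 0.0209 with a capture left out. It was detected in 57 of 57 mural-like cells. In myeloid-like cells 7 were lower and 0 higher, namely Thbs2, which takes part in the uptake of Mmp2 (-5.13), the plasminogen activator Plat (-4.41), the convertase Pcsk5 (-3.82), Serpine2 (-3.48), the collagen-degrading cathepsin Ctsk (-3.44), Thbs1 (-3.00) and the membrane-anchored MMP inhibitor Reck (-2.99). With 1 capture left out, the calls of Thbs2, Plat, Pcsk5 and Serpine2 held in 7 of 7, that of Ctsk was lost without day 12 capture 2 (adjusted p = 0.0719), that of Reck without day 21 capture 1 (0.0523), and that of Thbs1 held in 2 of 7. Without the doubtful columns Thbs1 did not pass (adjusted p = 0.0537) and the collagen receptor Ddr2 did (-2.99, adjusted p = 0.0388). The most abundant in matrix fibroblast-like cells were Ctsk with 885 FPKM and Thbs2 with 486. Furin, which activates Mmp14 and Mmp11, was at 7.77, 6.997 and 8.63 FPKM in matrix fibroblast-like, mural-like and myeloid-like cells, differences that did not pass.

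Of 7 sheddases of the ADAM family, Adam12 was lower in myeloid-like cells (-4.74, adjusted p = 0.000707), and none passed between mural-like and matrix fibroblast-like cells. Of 12 transcription factors known to act on MMP promoters, Junb (+1.96, adjusted p = 0.037) and Fos (+0.96, adjusted p = 0.0462) were higher in myeloid-like cells, and 0 passed in mural-like cells. Both encode AP-1 proteins, and with a capture left out the calls held in 2 of 7 and 1 of 7 fits. Without the doubtful columns the call of Fos was lost (adjusted p = 0.06). Fos averaged 749 FPKM in matrix fibroblast-like, 1280 in mural-like and 1628 in myeloid-like cells. In matrix fibroblast-like cells none of the genes of these 4 lists passed between days.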

How the data were processed

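Single tdTomato-high cells were analysed as full-length cDNA in 7 captures. The authors aligned paired reads with Bowtie 1.0.0 to mm10 and computed FPKM with RSEM on GENCODE release 13, and the deposited values are these FPKM. The total per cell is not in the files and was estimated from the steps between FPKM values of 9426 single-transcript genes. Cells under the study's minimum of fragments (27), over 15% mitochondrial FPKM (47) or over its gene maximum (1) were left out. Symbols and positions are from GENCODE release 21, which holds 50376 identifiers and lacks 224. No column was left unmapped. The labels of the 40 cells of day 12 capture 3 name the table of capture 2 in their description, and these cells were matched to the third table by title and number of cells.

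Mean FPKM per kind and capture (3 cells or more, genes averaging 1 FPKM or more, pseudocount 1) was tested with limma 3.58.1 in R 4.3.3, two-sided, with a variance trend. Col1a1, Rgs5 and Tyrobp were left out. Single values between days were tested by exact permutation over captures. Fold changes on this scale understate those of low genes. The block between kinds is the capture. Capture numbers of different days are not stated to pair the samples, and the main fit between days used no pairing. Captures of the same number had correlations of deviations from the day mean of -0.00685 to 0.025 over 13552 genes. With 2 captures on a day their deviations mirror each other, so these values cannot decide whether captures were paired. A column was taken to hold another cell if at least 80% of that cell's rare genes were detected in it.

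The members, lists and tests were chosen with earlier results of these data known. All members were named, and of the lists the called genes and the most abundant ones. Alternatives changed the pseudocount, filters, scaling, averaging, limits, weights, block and captures, and those on shared columns and low Col1a1 were added after the data were seen. Python 3.11.15 with numpy 2.4.6, pandas 2.3.3, scipy 1.17.1 and matplotlib 3.10.9 was used.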

Additional observations from a re-analysis of the deposited data

Results flagged for a closer look

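The Timp3 difference of mural-like from matrix fibroblast-like cells was 6.20 on the log2 scale in day 12 capture 3, far from the nearest of the other 4 captures at 2.01, and 6.81 without the columns that hold another cell. It was the 1 value to stand apart among 20 groups of 4 or 5 captures, and chance gives about 1 in 20. The matrix fibroblast-like level in that capture was 2.29 FPKM, the lowest of the 7, and the mural-like level was 240 FPKM.

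Some differences from matrix fibroblast-like cells had opposite signs on different days, in comparisons with 1 to 3 captures per day that were not tested. Mmp23 in mural-like cells averaged -0.88 at day 12 and -1.47 at day 15 but 0.13 at day 21, a change of 1.01 from day 12 and of 1.60 from day 15. In day 12 capture 3 the Mmp23 difference was -1.35, or -3.57 without the columns that hold another cell. Timp1 in mural-like cells was at -3.39 at day 15 and 1.36 at day 21, a change of 4.75. Timp3 in myeloid-like cells was at -4.06 at day 12, 0.16 at day 15 and -5.40 at day 21, changes of 4.22 and then -5.56.

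The 11 kept cells of no kind entered no comparison. They had a median of 6 of the 10 members above 0 FPKM. Mmp14 was detected in 11 of 11, Mmp2 and Timp2 in 10, Mmp11 and Timp3 in 9, Mmp23 in 7, Timp1 in 6, Mmp19 in 4, Mmp3 in 2 and Mmp13 in 1.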

How the results depend on the processing

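All 10 members kept the sign of their mural-like and myeloid-like differences under every alternative run. The direction of the other called genes was not followed over the alternatives. Scaling each cell to a common total moved the median difference over all genes from -0.85 to -1.05 on the log2 scale for myeloid-like cells. Between mural-like and matrix fibroblast-like cells the count of genes called, 143, was 81 with a pseudocount of 0.1 FPKM, 46 without the filter, 431 with the mean of log values over cells, 612 with profiles weighted by cells, 248 without the block, 337 without the block and without the columns that hold another cell, 234 with only these 2 kinds in the fit, and 782 or 702 with mural-like cells, or mural-like and myeloid-like cells, of low Col1a1. It was 44 to 150 with a capture left out, and 73, 59, 55 and 52 when, besides those columns, day 12 capture 1, 2 or 3 or day 15 capture 1 was left out. The members called, 0, became 5 with the mean of logs, 2 weighted, 2 in the fit of 2 kinds, 1 with at least 5 cells per profile, 1 without those columns, with or without the block, and 2 with low Col1a1, and 0 to 1 with a capture left out, or 0 to 2 also without those columns. Between myeloid-like and matrix fibroblast-like cells 2197 genes became 1043 with a pseudocount of 10 FPKM, 1171 without the filter, 827 with at least 5 cells, 1230 weighted, 859 with 2 kinds, 1364 with mural-like cells of low Col1a1, 1284 to 1946 with a capture left out, and 1426 without those columns and day 12 capture 2. The 5 members called became 3 without the filter, weighted or with at least 5 cells, 2 with 2 kinds, and 3 to 6 with a capture left out, while the mean of logs called 7. Timp3 was not among those called with a pseudocount of 10 FPKM, doubled limits, the mean of logs, no filter, weights or 2 kinds. Between days 21 and 12 the 1 gene became 0 with a pseudocount of 0.1 FPKM, no filter, deeper cells, scaled cells, weights, the replicate block, or a capture left out, 5 with a filter at 10 FPKM, 3 with limits doubled and 70 with the mean of logs, which called 1 member, Timp3. Between days 15 and 12 the 0 genes became 3, 28 and 1 with a filter at 10 FPKM, the mean of logs and weights, and between days 21 and 15 1 with a pseudocount of 10 FPKM. Of the 2 members with an exact permutation p under 0.05 between days, 1 (Timp1) was counted with no filter on cells. The mean of logs gave Mmp3 and Timp3 in place of Timp1 and Mmp14, scaled cells gave Mmp13 and Mmp14, and leaving out the shared columns with the cells they hold gave Mmp13 and Timp1. The count was 0 to 2 with a capture left out, where the fits without a day 12 capture allow no p under 0.0667. With detection from 10 FPKM instead of above 0, 17 of 30 shares of cells moved beyond their intervals, and with 1 FPKM 2 of 30. The causes of these shifts were not tested. The 2 to 3 captures per day limit what could be detected.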
